A study of Mus musculus with 11 samples.

Results

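*Aspm*, *Cdk5rap2*, *Wdr62*, *Cenpj*, *Mcph1*, *Stil*, *Cep152*, *Cep135*, *Cit* and *Knl1* are the mouse counterparts of genes mutated in primary microcephaly, a disorder in which the brain is small at birth. They were taken by name, with earlier results of these data known, and are 10 of the 53801 genes in the count data. Their RNA was measured in 11 libraries of neuroprogenitor cells (NPCs) from the brains of E13.5 embryos on a C57BL/6 background mixed with 129SV. The Ctr group held cells of genotype *Smg6* Flox/Flox; RosaCreER tg/+ from embryos SMH_128, SMH_132 and SMH_133 that received no 4-hydroxytamoxifen (4-OHT), the drug that lets CreER enter the nucleus and recombine floxed DNA. The *Smg6*-iKO group (induced knockout) held cells of the same genotype from embryos SMH_127, SMH_128, SMH_132 and SMH_133 that received 1 µM 4-OHT. The Ctr + 4-OHT cells had the genotype *Smg6* Flox/Flox; RosaCreER +/+, which lacks the recombinase, and came from embryos SMH_125, SMH_126, SMH_129 and SMH_131 that received the same dose. According to the labels 4-OHT was present for 3 days, although the sources differ on how long, and RNA was taken 6 days after it was first added.

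Every group carried floxed *Smg6* on both alleles, so no library came from wild-type *Smg6*. CreER is driven from the Rosa locus, which is active in most cell types, and was therefore not limited to 1 kind of progenitor in these cultures, which were not split by brain region. No group combined CreER, 4-OHT and intact *Smg6*, so that the loss of *Smg6* and the activity of CreER itself cannot be told apart in these groups. Embryos SMH_128, SMH_132 and SMH_133 gave both a Ctr and a *Smg6*-iKO library, whereas no embryo gave both a Ctr + 4-OHT and a *Smg6*-iKO library.

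The libraries held between 26418249 and 33756875 counts on genes. *Smg6*, which encodes an endonuclease of nonsense-mediated mRNA decay, had between 62.3 and 71.9 CPM (counts per 1000000 counted reads, after normalization) in *Smg6*-iKO, 66.5 to 72.3 CPM in Ctr + 4-OHT and 69.4 to 79.4 CPM in Ctr. These ranges overlap, and a total over the whole gene does not show whether the floxed exon was lost. The 10 neural progenitor markers were detected in every group, with summed levels of 5271 to 6162 CPM in *Smg6*-iKO, 5614 to 6865 CPM in Ctr + 4-OHT and 6225 to 6714 CPM in Ctr. The 8 neuronal markers summed to between 1647 and 2687 CPM, the 5 mesenchymal markers to between 90.5 and 548 CPM, and the 5 microglial markers to at most 1.69 CPM over all libraries, with no marker of these lists at 0 in a whole group. Of all genes tested, 0.757% were called higher and 0.416% lower in *Smg6*-iKO against Ctr + 4-OHT, whereas after a gene length correction 94 were higher and 156 lower. In *Smg6*-iKO against Ctr 767 genes were higher and 896 lower, and the split became 1089 and 694 with upper-quartile normalization and 550 and 1405 with the length correction.

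Most of the 10 genes act where chromosomes are pulled apart. A dividing cell carries a pair of centrosomes, each built around centrioles that are copied once per cell cycle and wrapped in pericentriolar material, from which the microtubules of the spindle grow. Radial glia and other neural progenitors of the embryonic brain divide many times at the ventricle, and loss of centrosome, spindle pole, kinetochore or cytokinesis function there lowers the number of progenitors and of the neurons they produce. ASPM, WDR62 and CDK5RAP2 are proteins of the spindle pole and the pericentriolar material. STIL, CENPJ (CPAP), CEP152 and CEP135 assemble new centrioles, MCPH1 restrains premature chromosome condensation, KNL1 is the scaffold of the outer kinetochore, and CIT (citron kinase) holds the midbody together at the end of division.

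The promoters of 4 of these genes are printed because they carry the contrast of the results that follow, and were chosen after the values were seen. *Aspm* and *Knl1* were the members with lower levels in *Smg6*-iKO than in each of the other libraries, *Stil* was lower than every Ctr library, and *Cdk5rap2* was not lower than either control. Each sequence runs 5′ to 3′ along the gene from 120 bases before the annotated transcription start to 50 bases from it, as RefSeq gives it on GRCm38.p6. Capitals mark TTTGAA, a form of the cell cycle genes homology region (CHR) found in promoters of genes expressed in G2 and mitosis, and CCAAT, a box bound by NF-Y, which reads ATTGG where it lies on the other strand. The positions are chr1:139454653-139454822 on the + strand for *Aspm*, chr2:119046999-119047168 on the + strand for *Knl1*, chr4:70410386-70410555 on the - strand for *Cdk5rap2* and chr4:114999998-115000167 on the + strand for *Stil*.
*Aspm* promoter: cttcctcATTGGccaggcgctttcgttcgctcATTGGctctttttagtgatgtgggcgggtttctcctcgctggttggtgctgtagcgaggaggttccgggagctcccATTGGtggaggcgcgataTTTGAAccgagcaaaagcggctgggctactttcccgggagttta
*Knl1* promoter: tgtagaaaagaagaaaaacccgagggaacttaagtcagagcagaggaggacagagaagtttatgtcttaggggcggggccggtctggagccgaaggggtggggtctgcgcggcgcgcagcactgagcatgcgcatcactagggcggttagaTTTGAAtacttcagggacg
*Cdk5rap2* promoter: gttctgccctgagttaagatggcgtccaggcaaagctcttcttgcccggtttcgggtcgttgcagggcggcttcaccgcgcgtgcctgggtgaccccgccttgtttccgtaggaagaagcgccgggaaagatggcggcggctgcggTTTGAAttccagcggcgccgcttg
*Stil* promoter: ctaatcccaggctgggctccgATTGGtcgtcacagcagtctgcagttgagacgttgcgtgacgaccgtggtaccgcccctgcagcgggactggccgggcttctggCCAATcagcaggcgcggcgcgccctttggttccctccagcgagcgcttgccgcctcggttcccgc

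TTTGAA began at position 7 from the start in *Aspm*, at position 32 in *Knl1* and at position 27 in *Cdk5rap2*, and lay on the strand of the gene in each. The windows of *Wdr62*, *Stil*, *Cenpj*, *Cep152*, *Cep135* and *Cit* did not hold it. In the whole windows, from 250 bases before to 50 bases after the start, TTTGAA or its complement TTCAAA was found in 3 of the 9 members with a window and in 17.9% of 32851 mouse promoter windows. The other form of the CHR, the palindrome TTTAAA, was found in *Aspm* and *Stil*, 2 of 9 members, against 13.2% of all windows. CCAAT or ATTGG was found in *Aspm*, *Wdr62*, *Stil*, *Cep152* and *Cep135*, 5 of 9 members, against 37.4%. The motifs share no bases with each other in the printed sequences. A match describes these letters only and is not evidence of a bound site. *Mcph1* had no window.

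All 10 genes were expressed in every library and passed the filter on low counts in each comparison, with between 281 reads (*Wdr62*) and 10826 reads (*Aspm*) per library. Per kilobase of exon, the highest level belonged to *Aspm*, at 22.9 RPKM (reads per kilobase of exon per 1000000 counted reads, mean of 11 libraries), and the lowest to *Wdr62*, at 2.27 RPKM, a ratio of 10.1. *Cdk5rap2* (13.1 RPKM) and *Knl1* (12.2 RPKM) followed *Aspm* and could not be ordered, since *Cdk5rap2* was the higher in 7 of 11 libraries. Below them stood the centriole genes *Stil* (7.67 RPKM), *Cep152* (6.20 RPKM) and *Cep135* (5.10 RPKM), each above the next in 11 of 11 libraries although the ranges over all libraries overlapped. *Mcph1* (4.08 RPKM) exceeded *Cenpj* (3.73 RPKM) in 10 of 11 libraries, and both exceeded *Cit* (2.85 RPKM). These levels rest on the summed exons of each gene, and the members have long ones, from 4874 bases in *Cenpj* to 16417 bases in *Cit*, at or above the percentile 86.3 of all genes.

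On GRCm38 the members lie on 7 chromosomes. *Aspm* (ENSMUSG00000033952) spans chr1:139454772-139494091, *Knl1* (ENSMUSG00000027326) chr2:119047119-119105501, *Stil* (ENSMUSG00000028718) chr4:115000159-115043196, *Cep135* (ENSMUSG00000036403) chr5:76588698-76646466 and *Cit* (ENSMUSG00000029516) chr5:115845278-116008947. Of the members without a call, *Cep152* (ENSMUSG00000068394) lies at chr2:125563088-125625113, *Cdk5rap2* (ENSMUSG00000039298) chr4:70216856-70410443, *Wdr62* (ENSMUSG00000037020) chr7:30240138-30280419, *Mcph1* (ENSMUSG00000039842) chr8:18595131-18803189 and *Cenpj* (ENSMUSG00000064128) chr14:56526761-56575425. The span of *Cdk5rap2* overlaps a pseudogene, *Ywhaq-ps3*, on its own strand, and that of *Cit* 2 predicted transcripts, *Gm42473* and *Gm42471*. Whether they share exons was not examined. Reads in any shared exon would not have been counted for either gene. *Wdr62*, *Cenpj* and *Mcph1* overlap genes on the opposite strand alone, which counting by strand keeps apart.

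**Figure D1:**
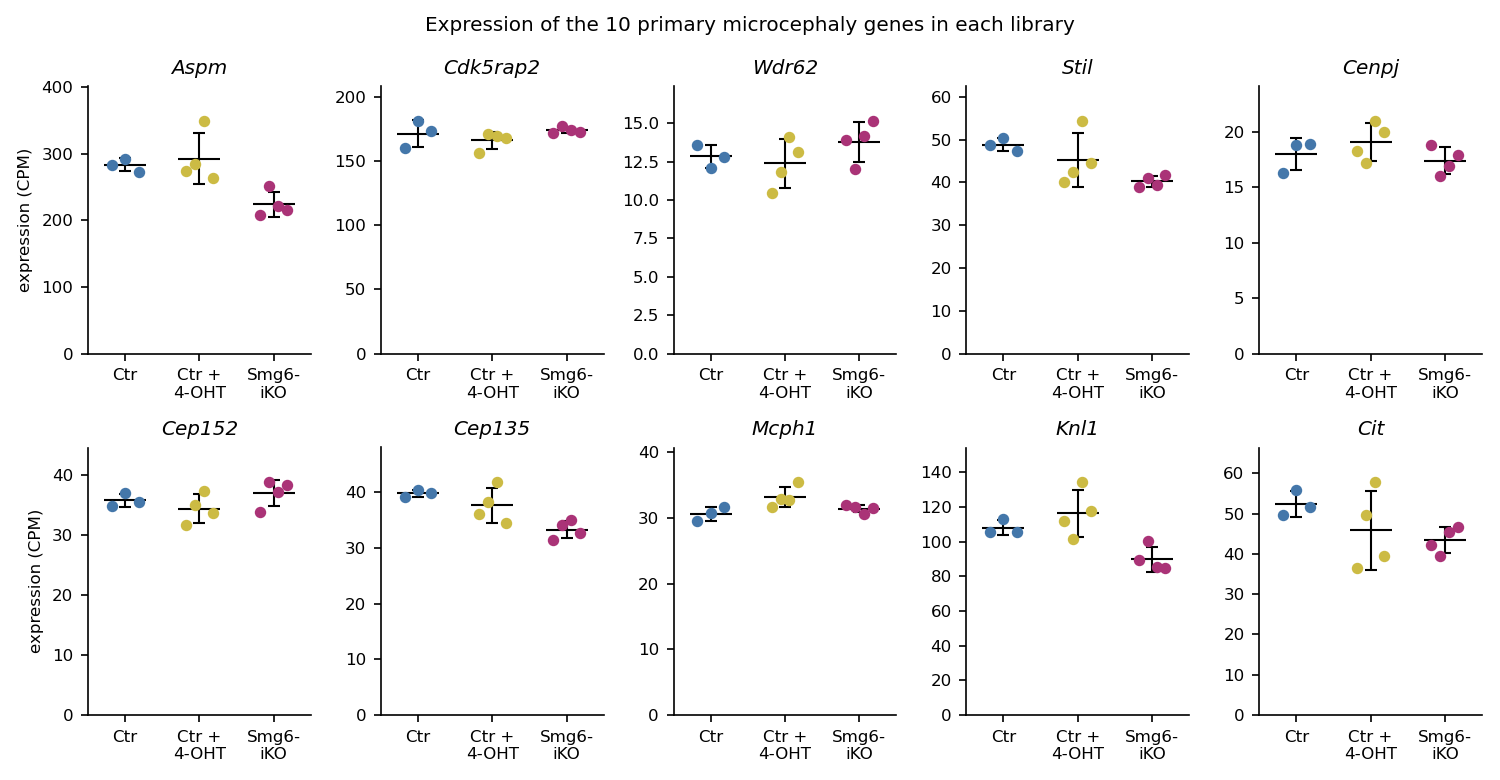
Expression in CPM (vertical axes, starting at 0) of each gene in Ctr (3 libraries), Ctr + 4-OHT (4) and *Smg6*-iKO (4). Points are libraries in order of embryo number, and black bars give the mean ± SD. The *Smg6*-iKO points of *Aspm* and *Knl1* lie below all points of both controls, and those of *Stil*, *Cep135* and *Cit* below all Ctr points.

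Among the members at the spindle pole, *Aspm* was lower in *Smg6*-iKO than in either control, whereas *Cdk5rap2* and *Wdr62* were not. *Aspm* had 208, 251, 222 and 216 CPM in the *Smg6*-iKO libraries of embryos SMH_127, SMH_128, SMH_132 and SMH_133, against 275, 284, 350 and 264 CPM in Ctr + 4-OHT (embryos SMH_125, SMH_126, SMH_129 and SMH_131) and 284, 293 and 274 CPM in Ctr (embryos SMH_128, SMH_132 and SMH_133). Every *Smg6*-iKO library lay below all 7 control libraries, and the library of embryo SMH_129 was far above the other controls. *Aspm* fell by 0.34 on the log2 scale against Ctr (SE 0.068, 95% interval -0.49 to -0.19, adjusted p = 0.0159 in edgeR's quasi-likelihood test), so that its level decreased by 20.9%. Against Ctr + 4-OHT the log2 fold change was -0.38 (SE 0.095, 95% interval -0.59 to -0.17), with an adjusted p of 0.0907 in edgeR, which missed the threshold of 0.05. In bulk RNA, fewer dividing cells and less *Aspm* RNA per dividing cell cannot be told apart.

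*Cdk5rap2*, whose product anchors γ-tubulin ring complexes, varied little. It had 172, 177, 174 and 173 CPM in *Smg6*-iKO, 156, 171, 170 and 168 CPM in Ctr + 4-OHT and 160, 181 and 173 CPM in Ctr. The *Smg6*-iKO libraries were all above those of Ctr + 4-OHT, by a margin smaller than 1 CPM at the closest pair, and lay within the range of Ctr. The log2 fold change was 0.078 (95% interval -0.029 to 0.19, adjusted p = 0.458) against Ctr + 4-OHT and 0.022 (95% interval -0.10 to 0.15, adjusted p = 0.843) against Ctr, both in edgeR. These intervals do not reach the fall of *Aspm* in the same comparison, but the difference between the genes itself was not tested.

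*Wdr62*, whose product acts with ASPM at the spindle pole, was the least abundant member and had 13.9, 12.0, 14.2 and 15.2 CPM in *Smg6*-iKO. It had 10.5, 11.8, 14.1 and 13.1 CPM in Ctr + 4-OHT and 13.6, 12.1 and 12.8 CPM in Ctr, and the groups overlapped. Its log2 fold change of 0.17 against Ctr + 4-OHT had the 95% interval -0.081 to 0.41 (adjusted p = 0.491), and that of 0.11 against Ctr the interval -0.10 to 0.32 (adjusted p = 0.512, edgeR).

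The centriole assembly genes split in the comparison with Ctr: *Stil* and *Cep135* fell, and *Cenpj* and *Cep152* were not called. *Stil*, which brings SAS-6 to the new centriole under the control of PLK4, had 38.9, 41.0, 39.5 and 41.6 CPM in *Smg6*-iKO and 48.8, 50.4 and 47.3 CPM in Ctr, with no overlap. In Ctr + 4-OHT it had 40.0, 42.4, 54.4 and 44.5 CPM, of which the lowest, from embryo SMH_125, lay among the *Smg6*-iKO values. *Stil* fell by 0.28 against Ctr (SE 0.054, adjusted p = 0.0131 in edgeR). With Ctr + 4-OHT as the reference it had -0.16 (95% interval -0.37 to 0.043, adjusted p = 0.414), which became -0.065 without the library of embryo SMH_129.

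*Cep135*, a structural protein of the cartwheel at the centriole's base, had 31.4, 34.1, 35.0 and 32.7 CPM in *Smg6*-iKO against a narrow range of 39.1, 40.4 and 39.9 CPM in Ctr. It had 36.1, 38.2, 41.8 and 34.5 CPM in Ctr + 4-OHT, where the library of embryo SMH_131 lay below the highest *Smg6*-iKO library. The gene fell by 0.26 against Ctr (SE 0.057, adjusted p = 0.0219) and had -0.17 on the same scale against Ctr + 4-OHT, with a 95% interval from -0.33 to -0.0052 and an adjusted p of 0.283 in edgeR.

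*Cep152*, which recruits PLK4 to the mother centriole, had 33.9, 38.8, 37.2 and 38.3 CPM in *Smg6*-iKO, 31.7, 35.0, 37.3 and 33.7 CPM in Ctr + 4-OHT and 34.9, 37.0 and 35.6 CPM in Ctr. *Cenpj*, which sets the length of the new centriole, had 18.8, 16.0, 16.9 and 17.9 CPM in *Smg6*-iKO, 18.3, 17.2, 21.0 and 20.0 CPM in Ctr + 4-OHT and 16.3, 18.8 and 18.9 CPM in Ctr. The groups of both genes overlapped. Against Ctr + 4-OHT the log2 fold change of *Cep152* was 0.12 (95% interval -0.041 to 0.27, adjusted p = 0.452) and that of *Cenpj* -0.12 (95% interval -0.32 to 0.067, adjusted p = 0.508, edgeR). Against Ctr the values were 0.048 (95% interval -0.091 to 0.19, adjusted p = 0.672) for *Cep152* and -0.047 (95% interval -0.24 to 0.14, adjusted p = 0.773) for *Cenpj*.

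*Knl1*, the platform on which the spindle checkpoint kinase BUB1 docks, was the other member below all 7 controls. It had 89.2, 100 and 85.3 CPM in the *Smg6*-iKO libraries of embryos SMH_127, SMH_128 and SMH_132 and 85.1 CPM in that of embryo SMH_133. In Ctr + 4-OHT it had 112, 102, 134 and 118 CPM, and in Ctr 106, 113 and 106 CPM. The closest pair was embryo SMH_128 of *Smg6*-iKO and embryo SMH_126 of Ctr + 4-OHT. *Knl1* fell by 0.27 against Ctr (SE 0.067, 95% interval -0.41 to -0.12, adjusted p = 0.0348), and Ctr + 4-OHT as the reference gave -0.36 (SE 0.087, 95% interval -0.56 to -0.17, adjusted p = 0.0790 in edgeR).

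*Cit* was the member with the widest spread among treated controls. It had 36.4, 49.7, 57.7 and 39.5 CPM in Ctr + 4-OHT, a coefficient of variation of 21.3%, and 42.1, 39.5, 45.4 and 46.7 CPM in *Smg6*-iKO, which lay inside that range. In Ctr it had 49.7, 55.8 and 51.6 CPM, all above *Smg6*-iKO. It fell by 0.27 against Ctr (SE 0.072, adjusted p = 0.0416), whereas the log2 fold change against Ctr + 4-OHT was -0.068 with a 95% interval of -0.37 to 0.23 (adjusted p = 0.846, edgeR) and became 0.059 without the library of embryo SMH_129.

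*Mcph1*, the gene of the condensin inhibitor microcephalin, had 31.9, 31.8, 30.6 and 31.5 CPM in *Smg6*-iKO and 29.5, 30.8 and 31.7 CPM in Ctr. It had 31.7, 33.0, 32.8 and 35.4 CPM in Ctr + 4-OHT. The log2 fold change was -0.068 (95% interval -0.19 to 0.058, adjusted p = 0.599) against Ctr + 4-OHT and 0.037 (95% interval -0.084 to 0.16, adjusted p = 0.713) against Ctr in edgeR.

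**Figure D2:**
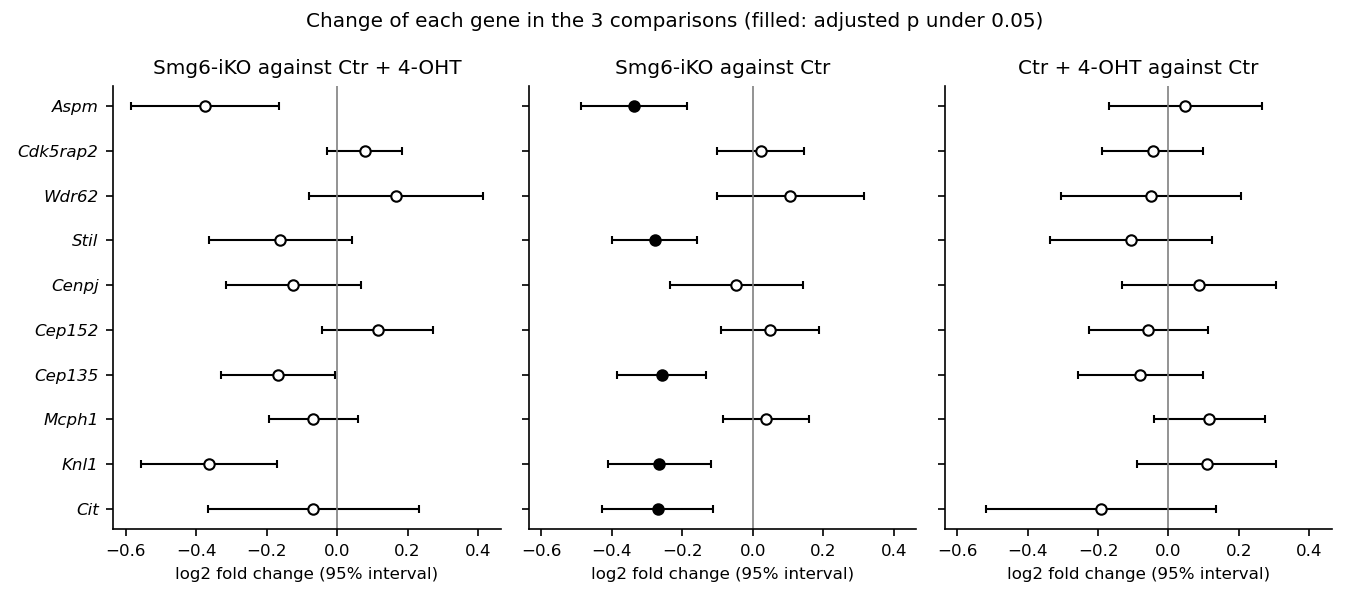
Log2 fold change (horizontal axis) of each gene with its 95% interval in the 3 comparisons, from edgeR's quasi-likelihood fit. Filled circles mark an adjusted p under 0.05, which *Aspm*, *Stil*, *Cep135*, *Knl1* and *Cit* reached against Ctr, and no gene in the other comparisons.

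Counted together, 5 of 10 members were called lower in *Smg6*-iKO against Ctr, where 4.98% of all genes tested were called lower, and 0 of 10 were called higher, against 4.27% of all genes. The same 5 had an unadjusted p under 0.05, against 13.3% of all genes lower by that rule. In the same 5, every *Smg6*-iKO library lay below every Ctr library, a separation found in 11.9% of genes. The other 5 members had log2 fold changes from -0.047 to 0.11, and the median over the 10 was -0.15, against 0.0055 over all genes.

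With the embryo as a block, which compares the Ctr and *Smg6*-iKO cultures of the same animal, the same 5 members were called lower, against 11.2% of all genes. The adjusted p was 0.000504 for *Aspm*, 0.00338 for *Knl1*, 0.00365 for *Stil*, 0.00423 for *Cit* and 0.00979 for *Cep135* in edgeR. Between the cultures of embryos SMH_128, SMH_132 and SMH_133, the log2 CPM of *Aspm* in *Smg6*-iKO minus Ctr was -0.18, -0.40 and -0.34. *Knl1* differed by -0.074, -0.41 and -0.31, *Stil* by -0.25, -0.35 and -0.18, *Cep135* by -0.20, -0.21 and -0.29, and *Cit* by -0.33, -0.30 and -0.14. For *Aspm* and *Knl1* the difference was smallest in embryo SMH_128, and for *Cit* in embryo SMH_133. *Cenpj* was also lower in all 3 embryos, with values of -0.027, -0.15 and -0.075. In all, 6 of 10 members were lower in 3 of 3 embryos, as were 25.7% of 18123 genes, and *Cep152* was higher in 3 of 3.

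**Figure D3:**
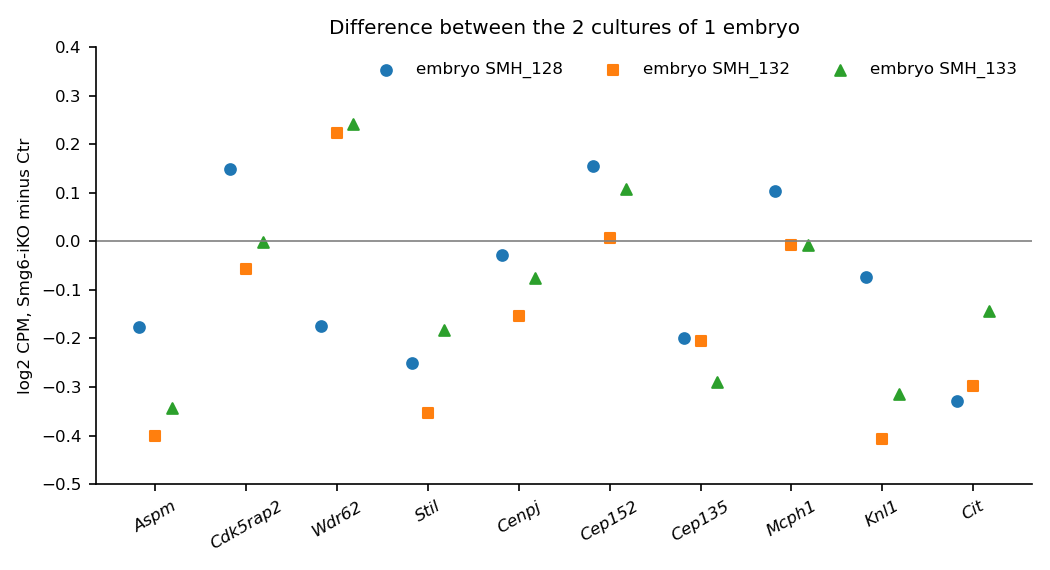
Difference in log2 CPM between the *Smg6*-iKO and the Ctr culture of the same embryo (vertical axis) for each gene, with 1 symbol for each of embryos SMH_128, SMH_132 and SMH_133. *Aspm*, *Stil*, *Cenpj*, *Cep135*, *Knl1* and *Cit* have all 3 points below 0, and *Cep152* has all 3 above it.

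The calls against Ctr depended on the libraries in the fit. The fits that follow held no embryo block and did not use the pairing of Ctr and *Smg6*-iKO libraries. The block fit was not repeated with a library left out. With all 11 libraries in 1 edgeR fit 0 of 10 members were called, with the lowest adjusted p at 0.0576, against 2.63% of all genes called lower. Left out in turn, the Ctr libraries of embryos SMH_128, SMH_132 and SMH_133 left 0, 0 and 2 members called, and the *Smg6*-iKO libraries of embryos SMH_127, SMH_128, SMH_132 and SMH_133 left 2, 4, 3 and 1. The genes called lower moved from 896 to 300, 371 and 648 without these Ctr libraries and to 467, 1389, 510 and 346 without these *Smg6*-iKO libraries, of between 17660 and 18423 tested. *Stil* was called in 5 of these 7 fits, *Aspm* in 4, *Cep135* in 2, *Knl1* in 1 and *Cit* in 0, so that the call of *Cit* was lost whichever library was left out. The log2 fold changes moved less than the calls, from -0.40 to -0.30 for *Aspm* and from -0.31 to -0.26 for *Stil*.

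Against Ctr + 4-OHT, the control that received the drug, edgeR called 0 of 10 members lower, where 0.416% of all genes were called lower, and 0 of 10 higher, where 0.757% were. At an unadjusted p under 0.05, *Aspm*, *Knl1* and *Cep135* were lower, 3 of 10 against 7.67% of all genes. *Aspm* and *Knl1* separated from every Ctr + 4-OHT library downward, 2 of 10 against 5.99% of genes, and *Cdk5rap2* upward, 1 of 10 against 5.03%. The 2 members below every library of both controls stand beside 3.5% of genes. The median log2 fold change of the 10 was -0.096, against 0.012 over all genes, and became -0.16 both without the library of embryo SMH_125 and with the gene length correction.

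*Aspm* and *Knl1* were called lower against Ctr + 4-OHT in 4 of 15 alternative fits and in none of the other 11. The latter include every fit with 1 library left out, where between 11 of 17741 and 74 of 17771 genes were called lower. The DESeq2 Wald test, which the study used, gave adjusted p of 0.00714 and 0.00630 on these groups, against 3.39% of its genes called lower. DESeq2 on all libraries called the same 2, against 5.12%. All libraries in 1 edgeR fit called them, against 1.33% of genes, and so did the edgeR fit with no filter on low counts, against 0.51%. The library of embryo SMH_129 held the highest Ctr + 4-OHT value of *Aspm*, *Wdr62*, *Cenpj*, *Stil*, *Cep152*, *Cep135*, *Cit* and *Knl1*. Without it the log2 fold change of *Aspm* moved from -0.38 to -0.28 and that of *Knl1* from -0.36 to -0.29, and 0 members were called.

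The controls did not differ by call. In Ctr + 4-OHT against Ctr, which differ in both drug and Cre genotype, 0 of 10 members were called by edgeR or DESeq2 and 0 had an unadjusted p under 0.05, where 0.181% of all genes were called lower and 0.0396% higher. The log2 fold changes lay between -0.19 for *Cit* (95% interval -0.52 to 0.13, adjusted p = 0.749) and 0.12 for *Mcph1* (95% interval -0.042 to 0.27, adjusted p = 0.698). *Mcph1* was the 1 member with every Ctr + 4-OHT library above every Ctr library, a separation found in 3.8% of genes. For *Aspm* the log2 fold change was 0.048 (95% interval -0.17 to 0.26), for *Knl1* 0.11 (95% interval -0.090 to 0.31) and for *Stil* -0.11 (95% interval -0.34 to 0.12). These intervals are wide enough to hold differences of the size seen in *Smg6*-iKO for *Stil* and *Cit*.

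The members varied to different extents over the 11 libraries. Centred on its mean, *Aspm* ranged from -0.33 in *Smg6*-iKO embryo SMH_127 to 0.41 in Ctr + 4-OHT embryo SMH_129 on the log2 scale, and *Knl1* from -0.28 to 0.37, whereas *Cdk5rap2* stayed between -0.12 and 0.090. The mean of the 10 centred values was highest in Ctr + 4-OHT embryo SMH_129, at 0.20, and lowest in *Smg6*-iKO embryo SMH_127, at -0.10, with Ctr + 4-OHT embryo SMH_125 next, at -0.092. The low mean of embryo SMH_125 came with low *Cit* (-0.35) and *Wdr62* (-0.31), while *Aspm* and *Knl1* were above their own means there.

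**Figure D4:**
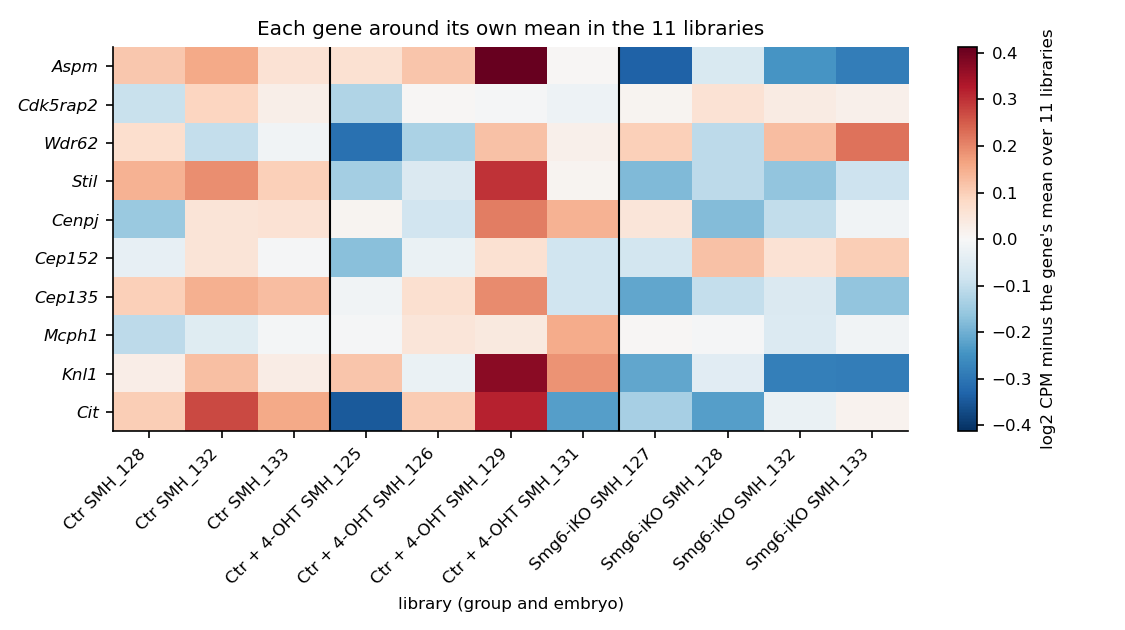
Log2 CPM of each gene (rows) in each library (columns, group and embryo) minus the gene's mean over the 11 libraries, from blue (below the mean) to red (above). The *Aspm* and *Knl1* rows are blue in all 4 *Smg6*-iKO libraries and deepest red in Ctr + 4-OHT embryo SMH_129, and the *Cdk5rap2* and *Mcph1* rows stay pale.

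The genes with profiles most like the members' were sought by the root mean square difference of centred log2 CPM over the 11 libraries. *Knl1* was nearest to *Smc2* (0.046), which encodes a core subunit of condensin, and *Stil* to *Dtl* (0.058). *Cep135* was nearest to *Ppa2* (0.035), *Cit* to *Adamts9* (0.074), *Cdk5rap2* to *Plod3* (0.036), *Wdr62* to *Zbtb7a* (0.074), *Cenpj* to *Ndc1* (0.048), *Mcph1* to *Dctd* (0.034) and *Cep152* to *Bmp1* (0.036). Among the members, *Aspm* and *Knl1* were each other's nearest, at 0.086, as were *Stil* and *Cep135*, at 0.082, and *Cdk5rap2* and *Cep152*, at 0.057. Many other genes were nearer, since *Knl1* ranked 93 for *Aspm* and *Aspm* 66 for *Knl1*. Nearest to the mean profile of all 10 were *Pitrm1* (0.032), *Ppp6r3*, *Ankle2*, *Rac1*, *Polq*, *Dlst*, *Ybx3*, *Dip2b*, *Zscan26* and *2810006K23Rik* (0.037). Genes that vary little lie near any flat profile by this measure, which bears on *Cdk5rap2*, *Mcph1* and *Cep152*, with spreads of their own of 0.059, 0.064 and 0.085.

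Other genes of the same processes were taken in lists that share some members, and their calls are given against Ctr + 4-OHT and then against Ctr. Each count of genes called lower stands beside 0.416% of all genes tested against Ctr + 4-OHT and 4.98% against Ctr, and each median beside 0.012 and 0.0055 over all genes. Of 24 other primary microcephaly genes 3 and 7 were called lower and 0 higher in either comparison, with medians of -0.10 and -0.12. They included *Plk4*, the kinase that starts centriole duplication, whose *Smg6*-iKO mean was 53.8 ± 3.41 CPM (SD, n = 4). Its mean was 70.7 ± 4.11 CPM (SD, n = 4) with 4-OHT and no Cre, and 64.8 ± 0.678 CPM (SD, n = 3) without treatment. *Plk4* fell in both comparisons, by 0.38 (adjusted p = 0.0240) and 0.27 (adjusted p = 0.0259, edgeR). *Lmnb1*, which encodes lamin B1, fell by 0.31 against Ctr + 4-OHT (adjusted p = 0.0243) and had -0.20 against Ctr (adjusted p = 0.0518, edgeR). *Mfsd2a*, a lipid transporter gene, fell by 0.38 against Ctr + 4-OHT (adjusted p = 0.0369) and had 0.21 against Ctr (adjusted p = 0.139), and it was higher in Ctr + 4-OHT than in Ctr by 0.60 (adjusted p = 0.0107, edgeR).

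Among 19 partners of the centriole genes, 1 and 4 were called lower, with medians of -0.13 and -0.15. Besides *Plk4*, the centrin gene *Cetn2* fell against Ctr (-0.26, adjusted p = 0.0279) and had -0.31 against Ctr + 4-OHT (adjusted p = 0.0647, edgeR). Of 24 genes of the pericentriolar material and spindle pole 0 and 4 were called lower, with medians of -0.086 and -0.056. The 4 were *Tpx2* (-0.43), *Tacc3* (-0.45), *Aurka* (-0.36) and *Ckap5* (-0.31), which encode factors that activate Aurora A, bear its activity or bind microtubule ends in mitosis. Against Ctr + 4-OHT *Tpx2* had -0.38 (adjusted p = 0.0614) and *Tacc3* -0.42 (adjusted p = 0.0936, edgeR).

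Most partners of *Knl1*, *Cit* and *Mcph1* were called lower against Ctr. Of 18 kinetochore and checkpoint genes 1 and 12 were called lower, with medians of -0.33 and -0.32, and *Nuf2*, a subunit of the NDC80 complex, fell by 0.47 (adjusted p = 0.0181) and 0.39 (adjusted p = 0.00461, edgeR). Of 17 cytokinesis genes 1 and 14 were called lower, with medians of -0.34 and -0.40, and *Kif4*, a chromokinesin of the central spindle, fell by 0.42 in both (adjusted p = 0.0243 and 0.00439, edgeR). Of the 8 condensin subunits 2 and 8 were called lower, with medians of -0.32 and -0.36, and *Smc2* fell by 0.39 and 0.35 (adjusted p = 0.0329 and 0.00781, edgeR). No list was tested as a set, and whether the lists differ from each other was not tested.

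The list of mitotic surveillance genes joins pathways to p53, the USP28 and 53BP1 branch that responds to slow division or centrosome loss and the PIDDosome, which responds to extra centrosomes. Of its 10 genes 1 and 2 were called higher, beside 0.757% and 4.27% of all genes tested, and 0 lower, with medians of 0.13 and 0.036. *Casp2*, the caspase activated by the PIDDosome, stood at 85.9 ± 1.56 CPM (SD, n = 4) in the *Smg6*-iKO libraries. The treated controls had 70.4 ± 3.64 CPM (SD, n = 4) and the untreated controls 73.0 ± 2.78 CPM (SD, n = 3). It rose by 0.30 (adjusted p = 0.0276) and 0.24 (adjusted p = 0.0220, edgeR). *Pidd1*, which encodes the platform of that complex, rose by 0.38 against Ctr (adjusted p = 0.0160) and had 0.52 against Ctr + 4-OHT (adjusted p = 0.118). *Cradd*, which encodes the adaptor between them, had -0.045 against Ctr + 4-OHT (adjusted p = 0.883) and -0.094 against Ctr (adjusted p = 0.693, edgeR), and is named after its values were seen. *Trp53* (0.17 and 0.072), *Cdkn1a* (0.37 and 0.036) and *Mdm2* (0.13 and 0.036) were not called in either comparison. They too are named after their values were seen.

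Proliferation markers moved with the groups. All 15 had negative log2 fold changes in both comparisons, and 5 and 12 were called lower, with medians of -0.37 and -0.37. Their summed level was 2468 to 2748 CPM in *Smg6*-iKO, 3207 to 3835 CPM in Ctr + 4-OHT and 3422 to 3528 CPM in Ctr, with none at 0 in any group. *Mki67* fell by 0.42 and 0.52 (adjusted p = 0.0358 and 0.00158) and *Cdk1* by 0.42 and 0.44 (adjusted p = 0.0313 and 0.00279, edgeR), both by more than *Aspm* and *Knl1* in the same comparisons, though the differences between genes were not tested. Of the 10 neural progenitor markers 0 and 5 were called lower and 7 and 10 had negative values, with medians of -0.16 and -0.32. *Hes5*, the most changed of them against Ctr, had -0.69 (adjusted p = 0.0647) and -1.28 (adjusted p = 0.00186), and -0.59 in Ctr + 4-OHT against Ctr (adjusted p = 0.401, edgeR). Of the 4 astrocyte markers, *Gfap* was called higher against Ctr (1.33, adjusted p = 0.0288), whereas *S100b* (0.56), *Aqp4* (0.11) and *Aldh1l1* (-0.12) were not called, and their summed level ranged from 428 to 516 CPM in *Smg6*-iKO and from 436 to 510 CPM in Ctr. All 8 neuronal markers had positive log2 fold changes against Ctr, with a median of 0.28, and 7 of 8 against Ctr + 4-OHT, with a median of 0.081, and 0 of 8 were called in either. The controls differed in the same direction without a call: in Ctr + 4-OHT against Ctr 7 of 8 neuronal markers were positive, with a median of 0.22, and 9 of 10 progenitor markers negative, with a median of -0.22. No oligodendrocyte, endothelial or mesenchymal marker was called in either comparison by edgeR, while the microglial markers were too low to be tested. The part of proliferation and of cell makeup in the lower *Aspm*, *Knl1*, *Stil*, *Cep135* and *Cit* was not tested.

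**Figure D5:**
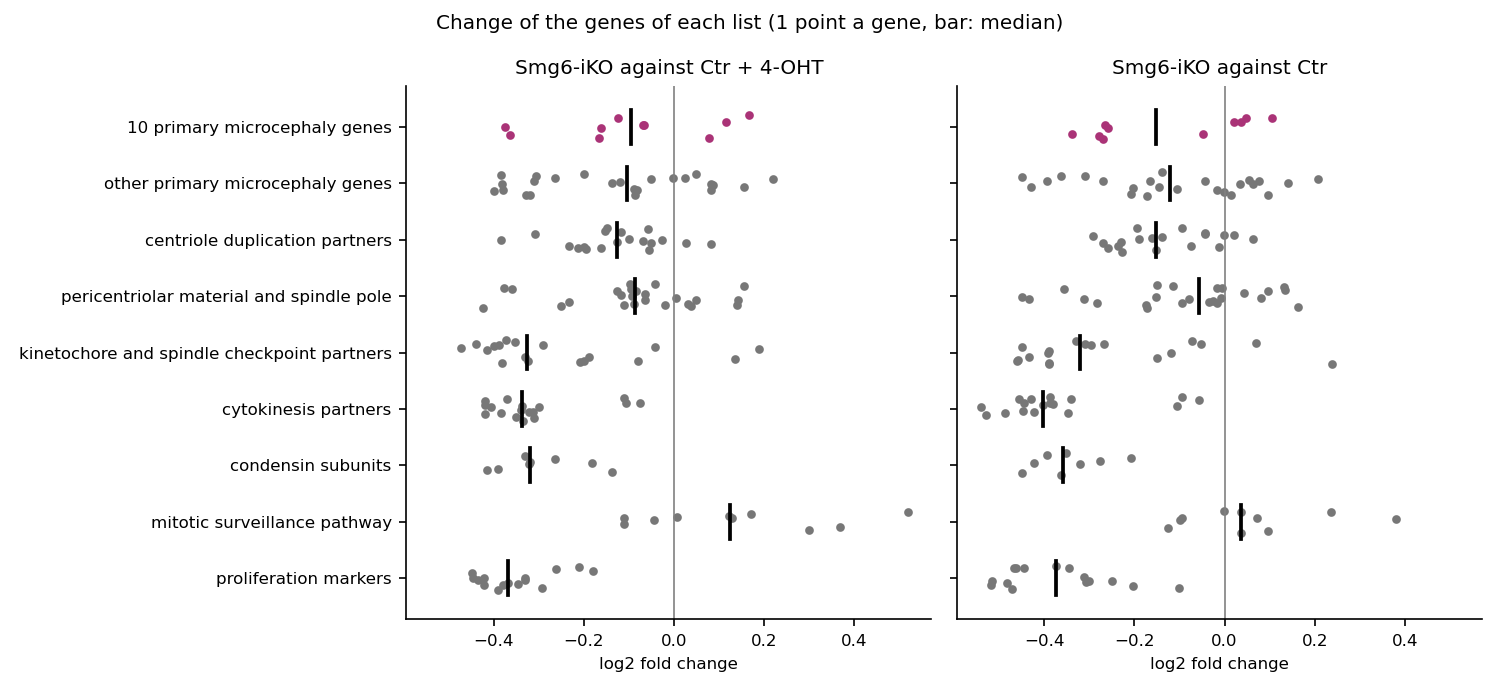
Log2 fold changes (horizontal axis) against Ctr + 4-OHT (left) and Ctr (right), 1 point for each gene of a list, with the list's median as a bar. The 10 genes spread on both sides of 0, while all 15 proliferation markers, all 17 cytokinesis genes and all 8 condensin subunits lie below it.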

How the data were processed

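The sample labels gave the groups, and Ctr and *Smg6*-iKO libraries from the same embryo number were taken as paired because they come from the same animal. Over 18123 genes the deviations of same-numbered libraries from their group means correlated at 0.328, 0.399 and 0.425. Those of differently numbered libraries correlated at between -0.265 and 0.0948. No 2 libraries of a group held duplicate counts (chi-square per gene 11.0 to 43.0).

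The authors deposited raw counts per gene, without normalization. Per the submitters' processing notes, bcl2fastq 1.8.4, STAR 2.5.4b and featureCounts 1.5.0 were used with GRCm38, and the study's methods describe counting by strand of reads that fit 1 position and 1 gene.

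Counts were analysed in R 4.3.3 with edgeR 4.0.16 (filterByExpr, TMM normalization, quasi-likelihood test, Benjamini-Hochberg adjustment over all genes tested, threshold 0.05), each comparison on its own groups. The standard error of a log2 fold change is its size over the square root of F, and 95% intervals use the total (prior and residual) degrees of freedom of the fit. CPM were normalized over the 11 libraries, where log2 values used a prior count of 2. RPKM used the exon length given with the deposited counts, which also gave the gene positions. GENCODE M21 gave the genes that overlap the members. Of 53801 identifiers, 53620 were paired with a symbol. Scripts were tested on simulated data. Tables were made in Python 3.11.15 (pandas 2.3.3), and plots with matplotlib 3.10.9.

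Promoter windows came from RefSeq on GRCm38.p6, with 9 of 10 members matched. The motifs were chosen after the promoters had been read.

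All 10 members are named in every comparison. From each list without a member, at most the 4 genes with the smallest unadjusted p against Ctr + 4-OHT are named, together with the 10 genes nearest the members' mean profile and the gene nearest each member. *Cradd*, *Trp53*, *Cdkn1a* and *Mdm2* fall outside this rule and were named after their values were seen. The gene nearest *Aspm* is not reported here. The members and lists were chosen with earlier results of these data known.

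Alternatives were 2 other normalizations in edgeR (DESeq2 size factors, upper quartile), testing without the low-count filter, a single fit to all libraries, and DESeq2 1.42.0 with the Wald test, fitted to the 2 groups or to all libraries. A loess trend on gene length was also removed per library (span 0.3), the embryo was entered as a block with and without that correction, and every library was omitted once. P-values of the fits without a block measure the spread between libraries of a group, each from its own embryo. Against Ctr these fits treat the paired libraries as independent. P-values of the block fits measure the spread of the differences within embryos. Read counts carry counting error too, which is smallest for *Aspm* and largest for *Wdr62*.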

Additional observations from a re-analysis of the deposited data

How the results depend on the processing

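The 5 members called lower in *Smg6*-iKO against Ctr became 0 with all libraries in 1 fit and between 0 and 4 with 1 library left out. In those fits between 300 of 18268 and 1389 of 17908 genes were called lower. It was 4, without *Cit*, with upper-quartile normalization and with DESeq2 on all libraries. The embryo as a block (replicate block) called 5, and with the length correction 5, and changed no call, but no library was left out of these fits. The 0 called against Ctr + 4-OHT became 2 with no filter on low counts, with all libraries in 1 fit, with the DESeq2 Wald test and with DESeq2 on all libraries, and stayed 0 in the 8 fits with 1 library left out. The cause of these differences was not tested. No alternative turned the sign of a called member. Among members not called, signs turned for *Cdk5rap2* against Ctr (-0.025 with the length correction, -0.0037 with block and length correction, and -0.023 to 0.053 with 1 library left out), *Mcph1* against Ctr (-0.0067 and -0.0044 with these corrections) and *Cit* against Ctr + 4-OHT (-0.17 to 0.059 with 1 library left out). In Ctr + 4-OHT against Ctr they turned for *Aspm* (-0.048 to 0.10) and *Wdr62* (-0.12 to 0.029) with 1 library left out. Over all genes, the 73 lower against Ctr + 4-OHT (0.757% of genes were higher) became 243 higher and 241 lower with all libraries in 1 fit, 234 and 184 without the filter, 385 and 488 with DESeq2, and 463 and 687 with DESeq2 on all libraries. Against Ctr the 767 higher and 896 lower became 1843 and 2011 with the block, 1344 and 2732 with block and length correction, 320 and 476 with all libraries in 1 fit, and 1461 and 1253 without the filter. Groups of 3 and 4 embryos limit what could be called. *Wdr62* and *Cenpj*, with the fewest reads, have the widest intervals against Ctr, and their lack of a call does not show that they did not differ.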
